A study of Rattus norvegicus with 12 samples.

Results

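Described here are 43 genes of glucose uptake, glycolysis, lactate handling and the hypoxia response in rat vascular smooth muscle cells exposed to angiotensin II (Ang II), a peptide hormone that raises blood pressure by constricting arteries. The genes were taken from a list of names by matching each to the gene symbol of the array's annotation, and all 43 listed genes had a probe set with exactly 1 symbol, among 14506 genes with such a probe set. The cells were cultured from the aorta of Sprague-Dawley rats, kept without serum for 48 h, and left untreated as the control (0 h) or given 100 nM Ang II for 6, 12 or 24 h. Each of these 4 groups has 3 arrays (Affymetrix Rat Gene 1.0 ST), called biological replicates in the labels with no word on separate animals or cultures. The p-values therefore reflect only how far these arrays scatter, which may be technical. Times are those of the titles and the design (6, 12 and 24 h), although the protocol text speaks of 1, 3 or 24 h. Serum-free cells kept for 6, 12 or 24 h without Ang II were not analysed here, so Ang II and time in culture cannot be told apart.

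Glycolysis turns glucose into pyruvate, which either enters mitochondria or is reduced to lactate and exported. Glucose transporters, hexokinase and phosphofructokinase set much of its rate, and many of its enzymes exist as isozymes encoded by separate genes. The hypoxia-inducible factors (HIF) raise many of these genes when oxygen is low: oxygen-dependent prolyl hydroxylases mark the HIF alpha subunits for destruction through the von Hippel-Lindau protein, and several HIF targets, among them the prolyl hydroxylase gene Egln3, feed back on the pathway. In cultured vascular smooth muscle, Ang II is known to increase glucose uptake and to stabilise HIF without hypoxia.

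Array medians lay between 7.22 and 7.32 on the deposited log2 scale, and arrays of 1 group correlated across genes at 0.9975 to 0.9984. Of 10 smooth muscle markers, 4 rose and 3 fell at 6 h, 5 rose and 1 fell at 12 h, and 9 rose and 0 fell at 24 h, and their mean level per array was 12.4 in every control array and 12.8 in every 24 h array, with the lowest gene mean in control cells at 9.31 (Des). Of 7 fibroblast markers 0 rose, and 5, 6 and 5 fell at 6, 12 and 24 h, their mean level per array being 9.21 to 9.27 in control cells and 8.57 to 8.64 at 24 h. Of 8 endothelial markers 1 rose and 2 fell at 6 h, 1 rose and 2 fell at 12 h and 1 rose and 1 fell at 24 h, with array means of 6.38 to 6.57 over all groups. Of 7 leukocyte and macrophage markers 0 rose at any time, and 1 (Cd14, at 24 h) fell. Among all genes 18.6%, 13.3% and 15.3% rose at 6, 12 and 24 h, and 17.2%, 13.3% and 14.7% fell. The files hold no detection calls, and a level on the array depends on the probes, so no statement on absence can be made. What part the smooth muscle and fibroblast marker changes have in the results that follow was not tested. In RNA from whole cultures, fewer cells of a type and less RNA per cell cannot be told apart.

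The 43 members were more often higher than lower after Ang II. They were chosen with earlier results of these data known, so the shares describe these genes and not their class. At 6 h 20 of 43 rose and 9 fell, against 35.8% of all 14506 genes that passed in either direction (18.6% higher, 17.2% lower; limma, Benjamini-Hochberg adjusted p under 0.05). At 12 h 22 of 43 rose and 6 fell, with 26.6% of all genes passing (13.3% higher and 13.3% lower). At 24 h 17 of 43 rose and 7 fell, with 30% of all genes passing (15.3% higher and 14.7% lower). Their median log2 change was 0.15, 0.17 and 0.09 at 6, 12 and 24 h, beside 0.01, 0.01 and 0.05 for all genes tested. Changes of at least 1.5-fold were found in 7 of 43 members at 6 h, 3 of 43 at 12 h and 2 of 43 at 24 h. Of all genes, 6.87%, 3.7% and 3.87% were past that size. The 3 arrays of a time lay wholly above or wholly below the 3 control arrays for 36 members at 6 h, 35 at 12 h and 32 at 24 h, beside 47.2%, 40.8% and 44.8% of all genes. At 1 or more times 39 members passed (51.6% of all genes), and 38 differed among the 4 groups (F test; 51.5% of all genes). The 4 members that passed at no time were Gapdh, Pgk1, Pgam1 and Kdm3a.

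**Figure D1:**
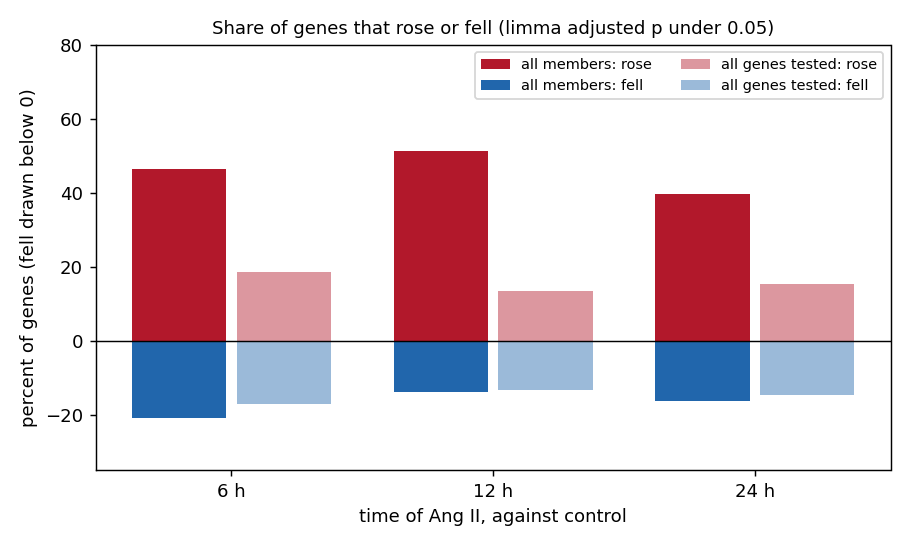
Percent of the 43 members (full colour) and of all 14506 genes tested (pale) that rose (above 0) or fell (below 0) against control at 6, 12 and 24 h. The share of members that rose was 46.5%, 51.2% and 39.5% in time order, and the share that fell was 20.9%, 14.0% and 16.3%.

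The members did not follow 1 course. Rising at all 3 times were 10 members (4.96% of all genes): Slc2a1, Aldoa, Tpi1, Eno1, Eno2, Pkm, Slc16a3, Hif1a, Ankrd37 and Gys1. Falling at all 3 times were Pfkm, Pfkfb3 and Egln3 (5.64% of all genes did so). Passing in both directions were Hk2, Slc16a1 and Car9 (4.99% of all genes). By size, whether or not it passed, the largest change fell at 6 h in 19 members (44.2%), at 12 h in 10 (23.3%) and at 24 h in 14 (32.6%), near the 37.1%, 23.2% and 39.7% of all genes. It fell at 6 h in 8 of the 9 members of the hexose phosphate group. For the 9 members of the steps from aldolase to pyruvate kinase it fell at 12 h in 4 and at 24 h in 5. The difference between these groups was not tested.

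**Figure D2:**
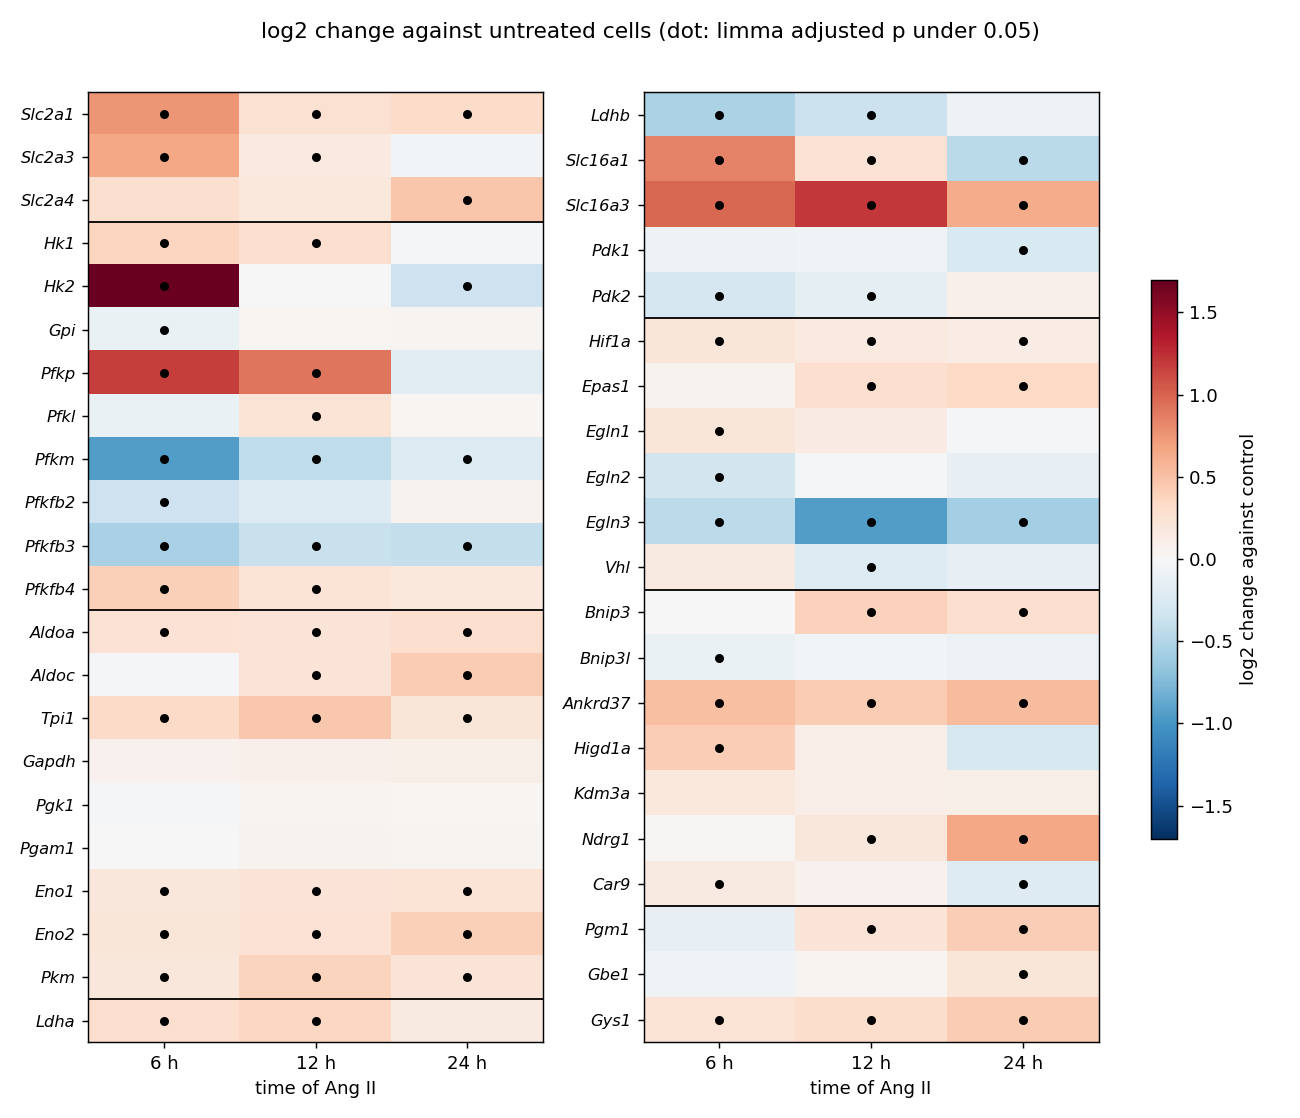
Heat map of the log2 change against control at 6, 12 and 24 h for the 43 members, ordered by role with lines between the roles, and with a dot where limma's adjusted p was under 0.05. Colours run from blue (lower) to red (higher), and the darkest cell is Hk2 at 6 h (1.68).

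Promoter sequence was set beside the response because HIF binds a short core, ACGTG or GCGTG, often near the start of these genes. RefSeq promoter windows (rat assembly GRCr8) were matched by NCBI gene identifier for 38 members, with 1 annotated start used per gene. Cores near any other start or outside the window were not looked for. Bnip3l, Ndrg1, Pgk1, Slc2a3 and Slc2a4 were not matched. In the 250 bases before the annotated start, read on both strands, 16 of 38 member promoters held ACGTG (42.1%), against 16.9% of 27456 promoters in all and 19.5% of the 11951 promoters of tested genes. GCGTG stood in 16 of 38 (42.1%), against 27.2% of all promoters and 36.2% of those of tested genes. The E-box CACGTG, which contains ACGTG on both strands and so counts as 2 matches of it, stood in 7 of 38 (18.4%), against 5.79% and 6.93%. Base composition differed too, with a median GC content of 62.4% in member promoters, 52% in all and 57.2% in those of tested genes. ACGTG was present in 10 of 22 promoters of members that rose and never fell, and in 3 of 10 promoters of members that fell and never rose. GCGTG was present in 11 of 22 and in 2 of 10, and at least 1 of both cores in 15 of 22 and in 5 of 10, with no test of these differences. A match of letters is a description and not a binding site.

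The following 6 windows, picked after their values were seen, show members with and without ACGTG among those that rose and those that fell. Each runs 5′ to 3′ over the 250 bases before the start, with ACGTG or its reverse complement in capitals. Ldha (chr1:106507842-106508091, plus strand) rose at 6 and 12 h and holds CACGTG starting 87 bases before the start and another ACGTG match at 73. Slc2a1 (chr5:138002272-138002521, plus strand), which rose at all times, has 1 match at 51. Bnip3 (chr1:203154963-203155212, minus strand), which rose only at 12 and 24 h by the test, holds CACGTG at 99. Pfkfb3 (chr17:71944683-71944932, plus strand) holds CACGTG at 42 and fell at all times. Hk2 (chr4:116841276-116841525, minus strand), the member with the largest rise, has neither ACGTG nor GCGTG in this window, and neither has Egln3 (chr6:77411016-77411265, minus strand), the member with the largest fall.
Ldha: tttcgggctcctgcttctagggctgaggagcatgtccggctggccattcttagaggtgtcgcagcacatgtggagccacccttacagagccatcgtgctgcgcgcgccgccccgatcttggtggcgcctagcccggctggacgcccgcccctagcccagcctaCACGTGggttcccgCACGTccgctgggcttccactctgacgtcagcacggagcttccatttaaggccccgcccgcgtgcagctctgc
Slc2a1: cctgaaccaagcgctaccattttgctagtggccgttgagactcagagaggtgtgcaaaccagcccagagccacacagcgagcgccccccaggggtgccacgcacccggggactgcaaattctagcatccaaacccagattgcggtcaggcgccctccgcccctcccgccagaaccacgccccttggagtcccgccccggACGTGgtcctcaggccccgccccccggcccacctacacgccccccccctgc
Bnip3: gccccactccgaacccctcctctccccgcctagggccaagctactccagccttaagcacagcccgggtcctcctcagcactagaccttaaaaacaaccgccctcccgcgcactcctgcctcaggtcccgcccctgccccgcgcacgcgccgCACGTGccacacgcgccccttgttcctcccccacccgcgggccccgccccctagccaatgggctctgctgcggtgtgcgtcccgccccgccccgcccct
Pfkfb3: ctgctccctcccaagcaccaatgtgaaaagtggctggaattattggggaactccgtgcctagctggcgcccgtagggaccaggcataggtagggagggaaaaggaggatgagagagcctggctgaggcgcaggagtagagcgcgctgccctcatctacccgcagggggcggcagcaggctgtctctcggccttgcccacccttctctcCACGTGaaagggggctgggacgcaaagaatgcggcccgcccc
Hk2: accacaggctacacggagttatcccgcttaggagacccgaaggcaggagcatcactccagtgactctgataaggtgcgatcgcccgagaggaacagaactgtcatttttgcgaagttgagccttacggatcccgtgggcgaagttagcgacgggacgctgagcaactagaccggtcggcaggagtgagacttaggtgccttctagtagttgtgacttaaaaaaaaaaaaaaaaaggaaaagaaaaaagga
Egln3: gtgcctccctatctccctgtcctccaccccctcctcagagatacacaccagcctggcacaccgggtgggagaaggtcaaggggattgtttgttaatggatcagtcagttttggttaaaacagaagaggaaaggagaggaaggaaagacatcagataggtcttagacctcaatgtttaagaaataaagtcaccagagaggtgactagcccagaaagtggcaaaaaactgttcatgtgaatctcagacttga

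Of the 3 glucose transporter genes, 2 rose at 6 h, 2 at 12 h and 2 at 24 h, and 0 fell. Among all genes 18.6%, 13.3% and 15.3% rose at these times. Slc2a1 encodes GLUT1, the transporter of basal glucose uptake. Its log2 values were 10.92, 10.92 and 10.92 in untreated cells, 11.59, 11.68 and 11.72 at 6 h, 11.24, 11.18 and 11.12 at 12 h and 11.37, 11.17 and 11.15 at 24 h. All 9 Ang II arrays lay above the 3 control arrays, the 6 h arrays highest. Slc2a1 was 1.67-fold higher at 6 h (log2 change 0.74 ± 0.06, SE, n = 3 arrays per group here and below; adjusted p = 1.53e-06) and still higher at 12 h (0.26 ± 0.06, adjusted p = 0.00746) and 24 h (0.31 ± 0.06, adjusted p = 0.00259). The fall from 6 to 12 h passed as well (−0.48 ± 0.06, adjusted p = 0.000112), whereas 24 h against 12 h did not (0.05 ± 0.06, adjusted p = 0.612).

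Slc2a3, the gene of the high-affinity transporter GLUT3, showed a pulse. Array values of Slc2a3 were 10.29, 10.32 and 10.22 in untreated cells, 10.98, 10.88 and 10.94 at 6 h, 10.39, 10.45 and 10.51 at 12 h and 10.23, 10.20 and 10.27 at 24 h. The 6 h arrays stood apart from all others, and the 24 h arrays overlapped the control. Its change was 0.66 ± 0.05 at 6 h (1.58-fold, adjusted p = 5.15e-07), 0.17 ± 0.05 at 12 h (adjusted p = 0.0176) and −0.05 ± 0.05 at 24 h (adjusted p = 0.501). The 12 h call was lost without control replicate 3 or Ang II 12 h replicate 3 (1 left out at a time, adjusted p 0.0701 to 0.0783). Slc2a4, which encodes the insulin-responsive transporter GLUT4 of muscle and fat, passed only at 24 h (0.47 ± 0.10, adjusted p = 0.00419), with 0.28 ± 0.10 at 6 h (adjusted p = 0.0553) and 0.18 ± 0.10 at 12 h (adjusted p = 0.234). Its difference between 24 and 6 h did not pass (0.20 ± 0.10, adjusted p = 0.149).

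**Figure D3:**
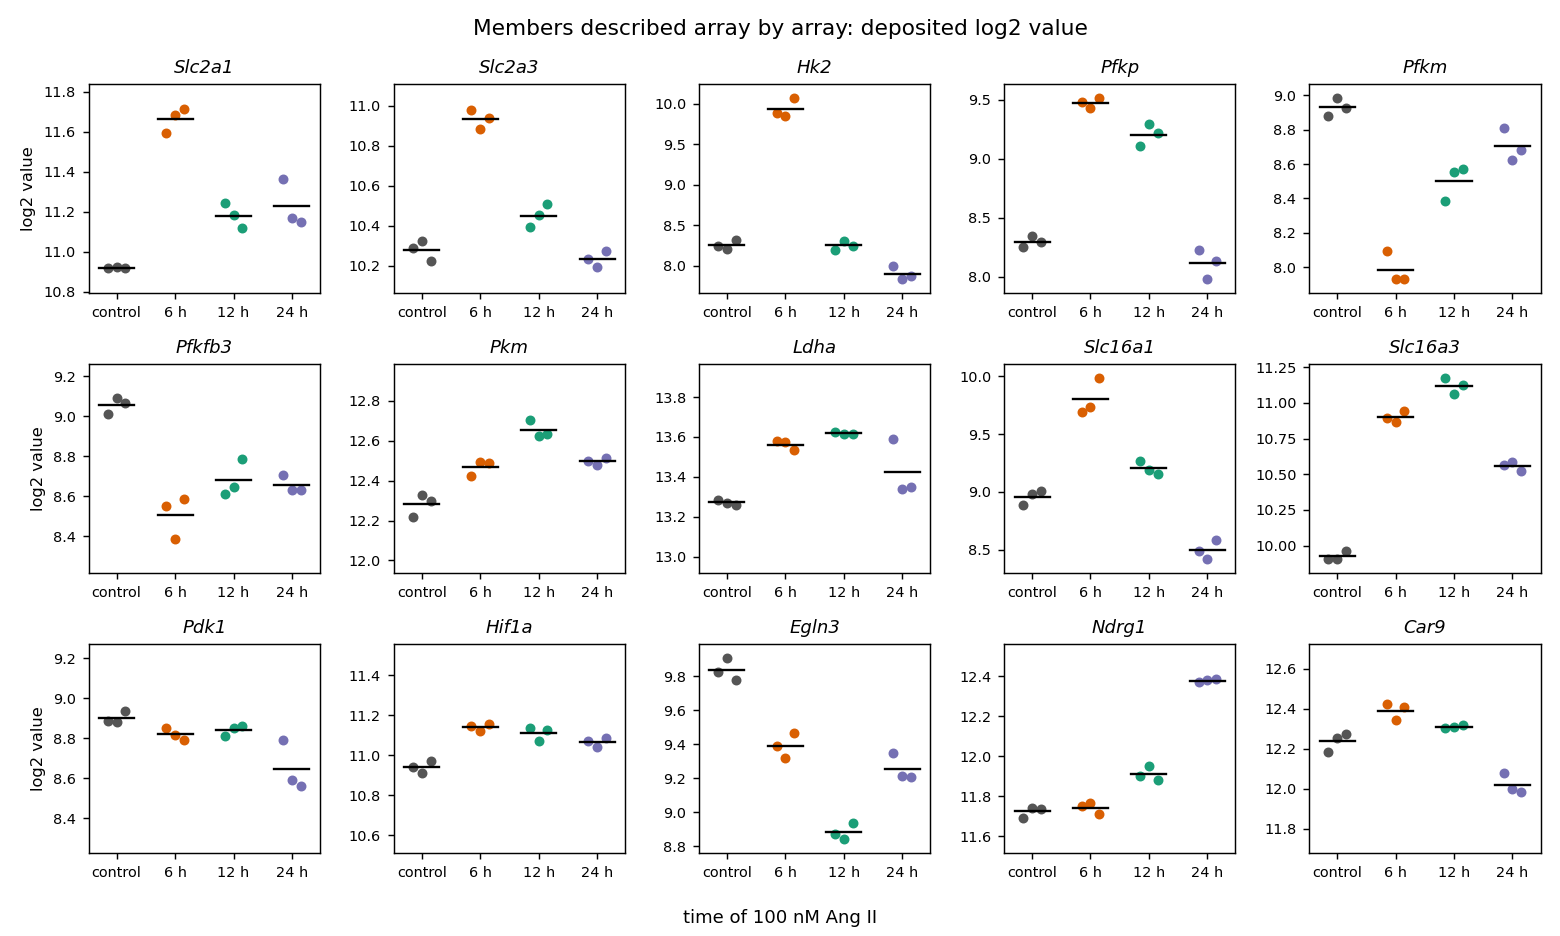
Deposited log2 value of each array for the 15 members described array by array, at control, 6, 12 and 24 h (dots are the 3 arrays, black lines their mean). Each panel has its own vertical range, and levels are not compared between genes. Hk2, Slc2a3 and Slc16a1 stand highest at 6 h, Slc16a3 at 12 h and Ndrg1 at 24 h, and Egln3 is lowest at 12 h.

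Hexokinase traps glucose in the cell as glucose phosphate, and Hk2, the inducible isozyme, gave the largest change of any member. Hk2 read 8.24, 8.21 and 8.32 in untreated cells, 9.88, 9.85 and 10.07 at 6 h, 8.20, 8.31 and 8.24 at 12 h and 7.99, 7.83 and 7.88 at 24 h. The 6 h arrays were far above every other array, the 12 h arrays overlapped the control, and the 24 h arrays all lay below it. The gene was 3.21-fold higher at 6 h (log2 change 1.68 ± 0.07, adjusted p = 3.54e-09), −0.00 ± 0.07 at 12 h (adjusted p = 0.972), and fell by 0.35 below control at 24 h (−0.35 ± 0.07, adjusted p = 0.00155). Between 6 and 24 h it dropped by 2.03 on the log2 scale (−2.03 ± 0.07, adjusted p = 1.13e-09). Hk1, the isozyme found in most tissues, rose less, by 0.37 ± 0.04 at 6 h (adjusted p = 2.69e-05) and 0.28 ± 0.04 at 12 h (adjusted p = 0.000376), and at 24 h its change was −0.03 ± 0.04 (adjusted p = 0.633). Gpi, whose enzyme makes fructose phosphate from glucose phosphate, fell slightly at 6 h (−0.12 ± 0.04, adjusted p = 0.027), a call lost without control replicate 2 or 3 or Ang II 6 h replicate 1, 2 or 3 (1 left out at a time, adjusted p 0.0568 to 0.0962). With each array centred on its median this call was lost too (adjusted p = 0.107).

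The 3 phosphofructokinase genes, which encode the committed step of glycolysis, moved apart at 6 h. Pfkp (platelet-type subunit) read 8.25, 8.34 and 8.29 in untreated cells, 9.48, 9.43 and 9.52 at 6 h, 9.11, 9.29 and 9.22 at 12 h and 8.23, 7.98 and 8.14 at 24 h. Its 6 and 12 h arrays lay far above the control arrays, and its 24 h arrays just below them. Pfkp was 2.27-fold higher at 6 h (1.18 ± 0.07, adjusted p = 6.24e-08) and 1.88-fold higher at 12 h (0.91 ± 0.07, adjusted p = 1.01e-06), and its change at 24 h did not pass (−0.18 ± 0.07, adjusted p = 0.062). The drop from 12 to 24 h was −1.09 ± 0.07 (adjusted p = 5.27e-07).

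Pfkm (muscle-type subunit) went the other way. Its values were 8.88, 8.99 and 8.93 in untreated cells, 8.10, 7.93 and 7.93 at 6 h, 8.39, 8.55 and 8.57 at 12 h and 8.81, 8.62 and 8.68 at 24 h. All Ang II arrays were below all control arrays, the 6 h arrays lowest. Pfkm was 1.92-fold lower at 6 h (−0.94 ± 0.07, adjusted p = 5.74e-07), and lower at 12 h (−0.43 ± 0.07, adjusted p = 0.000606) and 24 h (−0.23 ± 0.07, adjusted p = 0.0273). The 24 h call was lost without control replicate 2 or 3 or Ang II 24 h replicate 2 or 3 (1 left out at a time, adjusted p 0.0654 to 0.102). Pfkl (liver-type subunit) had a change of −0.11 ± 0.05 at 6 h (adjusted p = 0.0983) and rose only at 12 h by the test (0.24 ± 0.05, adjusted p = 0.00354). Within an array, the log2 difference of Pfkp and Pfkm, set to 0 in control cells, was 2.13 ± 0.10 at 6 h, 1.34 ± 0.05 at 12 h and 0.05 ± 0.05 at 24 h (mean and SD over 3 arrays). This and the other isozyme pairs were chosen after their values were seen and carry no test.

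The PFKFB enzymes make and remove the sugar bisphosphate that activates phosphofructokinase. Pfkfb3, the isozyme with the strongest synthetic activity, read 9.01, 9.09 and 9.07 in untreated cells, 8.55, 8.39 and 8.59 at 6 h, 8.61, 8.65 and 8.79 at 12 h and 8.70, 8.63 and 8.63 at 24 h. Every Ang II array was below every control array, with the 6 h arrays lowest and the 12 and 24 h arrays overlapping. Pfkfb3 was 1.46-fold lower at 6 h (−0.55 ± 0.06, adjusted p = 2.26e-05), with −0.38 ± 0.06 at 12 h (adjusted p = 0.000722) and −0.40 ± 0.06 at 24 h (adjusted p = 0.000419). Pfkfb2 fell at 6 h (−0.35 ± 0.09, adjusted p = 0.0111). Pfkfb4 rose at 6 h (0.41 ± 0.07, adjusted p = 0.000499) and at 12 h (0.23 ± 0.07, adjusted p = 0.0269), the latter call being lost without control replicate 1 or Ang II 12 h replicate 2 or 3 (1 left out at a time, adjusted p 0.0526 to 0.107). Over the hexose phosphate group of 9 genes, 4 of 9 rose and 4 fell at 6 h, 4 rose and 2 fell at 12 h, and 0 rose and 3 fell at 24 h. Of all genes, 18.6% rose and 17.2% fell at 6 h, 13.3% and 13.3% at 12 h, and 15.3% and 14.7% at 24 h.

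**Figure D4:**
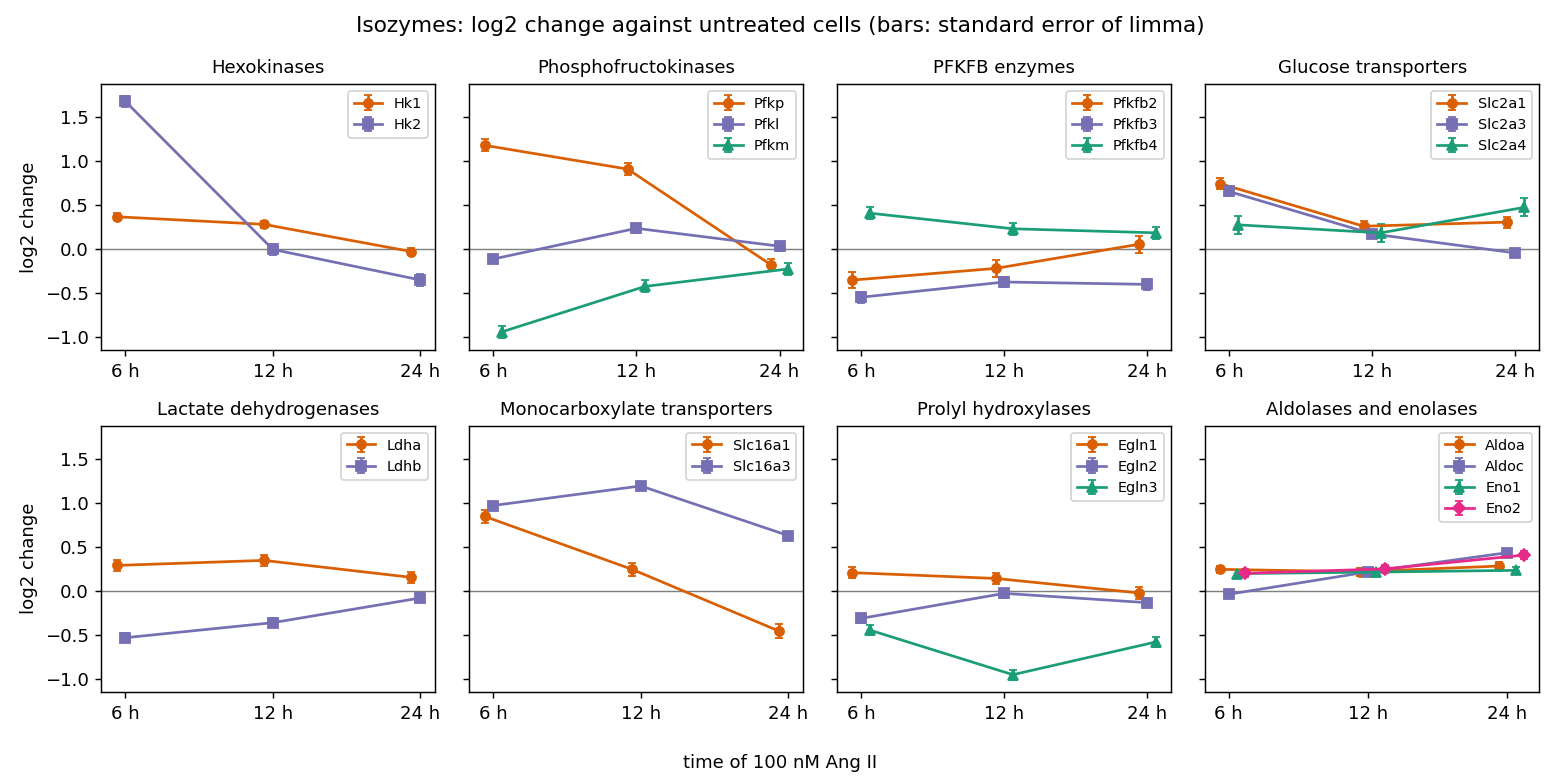
Log2 change against control at 6, 12 and 24 h for isozymes of 8 enzyme or transporter families (points are limma estimates from 3 arrays per group, bars their SE). Pfkp and Pfkm lie on opposite sides of 0 at 6 and 12 h, as do Ldha and Ldhb, and Slc16a1 crosses 0 between 12 and 24 h while Slc16a3 stays above it.

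The genes of the steps from aldolase to pyruvate kinase rose modestly or did not pass, and 0 of the 9 genes fell at any time. At 6 h 5 of 9 rose (18.6% of all genes), and at 12 and 24 h 6 of 9 (13.3% and 15.3% of all genes). Pkm encodes the pyruvate kinase of muscle and dividing cells, and read 12.22, 12.33 and 12.30 in untreated cells, 12.42, 12.49 and 12.49 at 6 h, 12.70, 12.63 and 12.63 at 12 h and 12.50, 12.48 and 12.51 at 24 h. All Ang II arrays were above the control arrays, the 12 h arrays highest. Its change was 0.19 ± 0.04 at 6 h (adjusted p = 0.0045), 0.37 ± 0.04 at 12 h (adjusted p = 4.73e-05) and 0.22 ± 0.04 at 24 h (adjusted p = 0.00253). Tpi1, the triose phosphate isomerase gene, rose by 0.32 ± 0.04, 0.46 ± 0.04 and 0.21 ± 0.04 at the 3 times (adjusted p = 0.0001, 1.08e-05 and 0.00398), and fell back from 12 to 24 h (−0.25 ± 0.04, adjusted p = 0.00138).

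Among the aldolases, which split fructose bisphosphate, Aldoa rose by 0.25 ± 0.04 at 6 h (adjusted p = 0.000708) and 0.28 ± 0.04 at 24 h (adjusted p = 0.000383). Aldoc, the brain-type aldolase, had −0.04 ± 0.04 at 6 h (adjusted p = 0.589), then rose to 0.22 ± 0.04 at 12 h (adjusted p = 0.00323) and 0.44 ± 0.04 at 24 h (adjusted p = 1.64e-05). Its increase from 6 to 24 h was 0.47 ± 0.04 (adjusted p = 5.16e-06). Both enolase genes rose: Eno1 by 0.20 ± 0.04 at 6 h (adjusted p = 0.00104) and 0.23 ± 0.04 at 24 h (adjusted p = 0.000453), and the neuronal isozyme gene Eno2 by 0.20 ± 0.05 (adjusted p = 0.00545) and 0.41 ± 0.05 (adjusted p = 4.7e-05).

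Gapdh, Pgk1 and Pgam1, which encode the 3 enzymes between triose phosphate and enolase, passed at no time. Gapdh had 0.07 ± 0.04, 0.09 ± 0.04 and 0.10 ± 0.04 (adjusted p = 0.194, 0.0975 and 0.0584), with all Ang II arrays above the highest control array. Changes of Pgk1 were −0.01 ± 0.05, 0.04 ± 0.05 and 0.03 ± 0.05, and those of Pgam1 0.01 ± 0.04, 0.06 ± 0.04 and 0.05 ± 0.04, all with adjusted p of 0.323 or more. Gapdh had 16 probe sets named by this symbol alone. Their changes were between 0.07 and 0.10 at 6 h and between 0.08 and 0.16 at 12 h, and 3 of the 16 passed at 12 and at 24 h when all probe sets were tested. These genes have near-identical copies in the rat genome, and probe sets cannot be assigned to a single copy with certainty. Eno1, Pkm, Ldha, Egln1 and Bnip3 also had several probe sets, so the same limit may hold for them.

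The lactate dehydrogenase genes moved in opposite directions at 6 and 12 h, and the lactate carrier genes at 24 h. Ldha, whose subunit favours lactate formation, read 13.29, 13.27 and 13.26 in untreated cells, 13.58, 13.57 and 13.53 at 6 h, 13.63, 13.62 and 13.62 at 12 h and 13.59, 13.34 and 13.35 at 24 h. All Ang II arrays were above control, and of the 24 h arrays 1 was near the 6 h level and 2 were close to control. It rose by 0.29 ± 0.06 at 6 h (adjusted p = 0.0022) and 0.35 ± 0.06 at 12 h (adjusted p = 0.000965), and at 24 h did not pass (0.15 ± 0.06, adjusted p = 0.0749). A dimmer probe set of Ldha gave 0.28 at 24 h (adjusted p = 0.00409 over all probe sets), so the 24 h call depends on the probe set. Ldhb, whose subunit favours pyruvate formation, fell by 0.53 at 6 h (−0.53 ± 0.05, adjusted p = 5.92e-06) and by 0.36 at 12 h (−0.36 ± 0.05, adjusted p = 0.000233), with −0.08 ± 0.05 at 24 h (adjusted p = 0.264). Within an array the Ldha minus Ldhb difference, set to 0 in control cells, was 0.82 ± 0.07 at 6 h, 0.71 ± 0.03 at 12 h and 0.23 ± 0.07 at 24 h (SD, n = 3).

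Slc16a3 encodes MCT4, the carrier that exports lactate from glycolytic cells. Its array values were 9.91, 9.91 and 9.97 in untreated cells, 10.89, 10.86 and 10.94 at 6 h, 11.18, 11.06 and 11.12 at 12 h and 10.56, 10.58 and 10.52 at 24 h. Control and Ang II arrays were widely separated at every time. Slc16a3 was 1.96-fold higher at 6 h (0.97 ± 0.04, adjusted p = 1.01e-08), 2.29-fold at 12 h (1.20 ± 0.04, adjusted p = 4.63e-09) and 1.55-fold at 24 h (0.63 ± 0.04, adjusted p = 7.73e-07). The increase from 6 to 12 h (0.22 ± 0.04, adjusted p = 0.00241) and the fall from 12 to 24 h (−0.57 ± 0.04, adjusted p = 2.94e-06) both passed.

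Slc16a1, the gene of the widely expressed carrier MCT1, reversed. It read 8.88, 8.98 and 9.01 in untreated cells, 9.69, 9.74 and 9.99 at 6 h, 9.27, 9.19 and 9.15 at 12 h and 8.49, 8.42 and 8.59 at 24 h. The 6 and 12 h arrays lay above the control arrays and the 24 h arrays below them. Slc16a1 was 1.8-fold higher at 6 h (0.85 ± 0.08, adjusted p = 3.24e-06), 0.25 ± 0.08 at 12 h (adjusted p = 0.0324) and 1.37-fold lower at 24 h (−0.46 ± 0.08, adjusted p = 0.000708). The 12 h call was lost without control replicate 1, 2 or 3 or Ang II 12 h replicate 1 or 2 (1 left out at a time, adjusted p 0.0509 to 0.117). Relative to control cells the Slc16a3 minus Slc16a1 difference was 0.12 ± 0.13 at 6 h, 0.95 ± 0.05 at 12 h and 1.09 ± 0.12 at 24 h (SD, n = 3).

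Pyruvate dehydrogenase kinases close the entry of pyruvate into mitochondria. Pdk1, a well-known HIF target, read 8.88, 8.88 and 8.94 in untreated cells, 8.85, 8.82 and 8.79 at 6 h, 8.81, 8.85 and 8.86 at 12 h and 8.79, 8.59 and 8.56 at 24 h. Its Ang II arrays were all below its control arrays, and 2 of the 24 h arrays stood clearly below the rest. The change was −0.08 ± 0.06 at 6 h (adjusted p = 0.328), −0.06 ± 0.06 at 12 h (adjusted p = 0.511) and −0.25 ± 0.06 at 24 h, where it passed (adjusted p = 0.00518). Pdk2 fell at 6 h (−0.28 ± 0.05, adjusted p = 0.000459) and at 12 h (−0.17 ± 0.05, adjusted p = 0.0169), the latter call being lost without control replicate 2 or Ang II 12 h replicate 2 (1 left out at a time, adjusted p 0.056 to 0.0721), and its change at 24 h was 0.09 ± 0.05 (adjusted p = 0.193). With each array centred on its median the 12 h call of Pdk2 was lost too (adjusted p = 0.0809).

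Among the oxygen-sensing genes, the HIF alpha subunit genes Hif1a and Epas1 rose slightly at 12 and 24 h, and Hif1a also at 6 h. Hif1a read 10.94, 10.91 and 10.97 in untreated cells, 11.15, 11.12 and 11.16 at 6 h, 11.13, 11.07 and 11.12 at 12 h and 11.07, 11.04 and 11.09 at 24 h. All Ang II arrays lay above all control arrays, by little. Its change was 0.20 ± 0.04 at 6 h (1.15-fold, adjusted p = 0.00108), 0.17 ± 0.04 at 12 h (adjusted p = 0.00539) and 0.13 ± 0.04 at 24 h (adjusted p = 0.0254), and the 24 h call was lost without control replicate 1 or 2 or Ang II 24 h replicate 3 (1 left out at a time, adjusted p 0.0659 to 0.0867). With each array centred on its median the 24 h call of Hif1a was lost too (adjusted p = 0.129). HIF alpha is controlled mainly at the level of the protein, which was not measured. Epas1, which encodes another HIF alpha subunit, rose at 12 h (0.29 ± 0.06, adjusted p = 0.00556) and 24 h (0.34 ± 0.06, adjusted p = 0.00176) but had 0.06 ± 0.06 at 6 h (adjusted p = 0.562).

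The prolyl hydroxylase gene Egln3, usually raised by HIF, had the largest fall of the members at 12 h, close in size to that of Pfkm at 6 h. Egln3 read 9.83, 9.91 and 9.78 in untreated cells, 9.39, 9.32 and 9.47 at 6 h, 8.87, 8.84 and 8.93 at 12 h and 9.35, 9.21 and 9.21 at 24 h. The 12 h arrays were lowest, and no Ang II array reached the control range. It was 1.94-fold lower at 12 h (−0.95 ± 0.06, adjusted p = 2.02e-07), after −0.45 ± 0.06 at 6 h (adjusted p = 6.25e-05) and before −0.58 ± 0.06 at 24 h (adjusted p = 1.25e-05). Both the fall from 6 to 12 h (−0.51 ± 0.06, adjusted p = 4.73e-05) and the return from 12 to 24 h (0.37 ± 0.06, adjusted p = 0.000522) passed. Egln1, the main hydroxylase of HIF under normal oxygen, rose at 6 h (0.21 ± 0.06, adjusted p = 0.0246), a call lost without control replicate 1 or Ang II 6 h replicate 2 or 3 (1 left out at a time, adjusted p 0.061 to 0.0962). A dimmer probe set of Egln1 gave 0.19 at 6 h and did not pass (adjusted p = 0.204 over all probe sets). Egln2 fell at 6 h (−0.31 ± 0.05, adjusted p = 0.000282) and had −0.03 ± 0.05 at 12 h (adjusted p = 0.747). Vhl, the gene of the von Hippel-Lindau protein, fell at 12 h (−0.24 ± 0.06, adjusted p = 0.0136), a call lost without control replicate 2 or 3 or Ang II 12 h replicate 1 (1 left out at a time, adjusted p 0.0503 to 0.0615).

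Of the 7 HIF-responsive genes outside metabolism, 3 rose at each time, and 1, 0 and 1 fell at 6, 12 and 24 h. Among all genes 18.6%, 13.3% and 15.3% rose at these times, and 17.2%, 13.3% and 14.7% fell. Ndrg1, a stress-responsive gene raised in hypoxia and in differentiation, read 11.69, 11.74 and 11.74 in untreated cells, 11.75, 11.77 and 11.71 at 6 h, 11.90, 11.95 and 11.88 at 12 h and 12.37, 12.38 and 12.39 at 24 h. Its 6 h arrays overlapped the control, its 12 h arrays lay above it and its 24 h arrays were highest. Ndrg1 had 0.02 ± 0.04 at 6 h (adjusted p = 0.772), rose by 0.19 ± 0.04 at 12 h (adjusted p = 0.00287) and was 1.58-fold higher at 24 h (0.66 ± 0.04, adjusted p = 1.89e-07). Car9, which encodes a carbonic anhydrase of the cell surface that handles acid, read 12.19, 12.26 and 12.28 in untreated cells, 12.42, 12.34 and 12.41 at 6 h, 12.30, 12.31 and 12.32 at 12 h and 12.08, 12.00 and 11.98 at 24 h. The 6 h arrays were above control and the 24 h arrays below it. Its change was 0.15 ± 0.04 at 6 h (adjusted p = 0.0164), 0.07 ± 0.04 at 12 h (adjusted p = 0.279) and −0.22 ± 0.04 at 24 h (adjusted p = 0.0024). The 6 h call of Car9 was lost without control replicate 1 or Ang II 6 h replicate 1 or 3 (1 left out at a time, adjusted p 0.0543 to 0.0729).

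Bnip3, the gene of a receptor that marks mitochondria for removal, had 0.00 ± 0.04 at 6 h (adjusted p = 0.957) and rose at 12 h (0.40 ± 0.04, adjusted p = 2.26e-05) and 24 h (0.28 ± 0.04, adjusted p = 0.000308). Its other probe set gave 0.02, 0.41 and 0.28 at the 3 times. The related receptor gene Bnip3l fell by 0.11 at 6 h (−0.11 ± 0.04, adjusted p = 0.0455), a call lost without control replicate 2 or 3, Ang II 6 h replicate 1 or 3, Ang II 12 h replicate 1 or 2 or Ang II 24 h replicate 2 or 3 (1 left out at a time, adjusted p 0.053 to 0.146). Ankrd37, an ankyrin repeat gene induced by HIF, rose by 0.51 ± 0.11, 0.43 ± 0.11 and 0.54 ± 0.11 (adjusted p = 0.00242, 0.0114 and 0.00269). Higd1a, which encodes a protein of the inner mitochondrial membrane, rose at 6 h (0.42 ± 0.11, adjusted p = 0.00798) and had −0.27 ± 0.11 at 24 h (adjusted p = 0.0777), with 24 h below 6 h (−0.68 ± 0.11, adjusted p = 0.000258). The histone demethylase gene Kdm3a had 0.18 ± 0.07 at 6 h (adjusted p = 0.0779) and passed at no time.

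The 3 glycogen genes rose together at 24 h, when 15.3% of all genes rose. Gys1, the gene of muscle glycogen synthase, rose by 0.24 ± 0.04, 0.30 ± 0.04 and 0.43 ± 0.04 (adjusted p = 0.001, 0.000291 and 1.58e-05). Pgm1, whose enzyme links glucose phosphate to glycogen, had −0.14 ± 0.05 at 6 h (adjusted p = 0.0539) and rose by 0.22 ± 0.05 at 12 h (adjusted p = 0.00724) and 0.42 ± 0.05 at 24 h (adjusted p = 8.05e-05), and its increase from 6 to 24 h was 0.56 ± 0.05 (adjusted p = 4.92e-06). The branching enzyme gene Gbe1 rose at 24 h (0.21 ± 0.06, adjusted p = 0.0282), a call lost without control replicate 1 or Ang II 24 h replicate 1 or 3 (1 left out at a time, adjusted p 0.0792 to 0.11).

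Tested directly between times, 13 of 43 rose and 7 fell from 6 to 12 h, with 27% of all genes passing in either direction (13.1% higher, 13.9% lower). The arrays of the 2 times did not overlap for 28 members (39.3% of all genes), and 2 members were past 1.5-fold (2.82% of all genes). The largest difference was that of Hk2 (−1.69 ± 0.07, adjusted p = 1.98e-08). From 12 to 24 h 8 of 43 rose and 13 fell (27.5% of all genes passed, 14% higher and 13.5% lower), led by the falls of Pfkp and of Slc16a1 (−0.71 ± 0.08, adjusted p = 3.95e-05). With each array centred on its median that split became 5 and 15. No overlap was found for 26 members (40.3% of all genes), and 2 were past 1.5-fold (2.43% of all genes). From 6 to 24 h 15 of 43 rose and 13 fell (39.2% of all genes passed, 19.4% higher and 19.8% lower). Arrays did not overlap for 30 members (48.9% of all genes), and 7 were past 1.5-fold (6.49% of all genes). The falls from 6 to 24 h were led by Hk2, Pfkp (−1.36 ± 0.07, adjusted p = 2.36e-08) and Slc16a1 (−1.31 ± 0.08, adjusted p = 1.01e-07), and the rises by Pfkm (0.72 ± 0.07, adjusted p = 6.24e-06) and Ndrg1 (0.64 ± 0.04, adjusted p = 1.17e-07). These 3 comparisons share arrays with each other and with the comparisons with control.

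Other genes of the same pathways were counted from lists that do not overlap the 43 members. Their counts stand beside 35.8%, 26.6% and 30% of all genes that passed at 6, 12 and 24 h. Of 26 further HIF-responsive genes, 6 rose and 5 fell at 6 h, 5 rose and 8 fell at 12 h, and 3 rose and 13 fell at 24 h. At 6 h this was 23.1% higher and 19.2% lower, near the 18.6% and 17.2% of all genes. At 12 h it was 19.2% higher and 30.8% lower, beside 13.3% and 13.3%. At 24 h it was 11.5% higher and 50% lower, beside 15.3% and 14.7%, so falls prevailed, unlike in the 43 members. The 24 h falls of P4ha2, Plod2, Mxi1 and Tfrc and the 24 h rise of Mif missed the threshold under 1 or more alternative fits. So did the 6 h fall of Zfp395 and the 12 h calls of P4ha2, Fam162a, Insig2 and Zfp395. Adm, the adrenomedullin gene, fell by 0.88 at 12 h (−0.88 ± 0.07, adjusted p = 3.09e-06). Mxi1, which encodes a repressor that opposes MYC, fell at 6 h (−0.81 ± 0.07, adjusted p = 2.93e-06). Bhlhe40, a repressor of the circadian clock, rose at 6 h (0.77 ± 0.06, adjusted p = 6.43e-07) and fell at 24 h (−0.38 ± 0.06, adjusted p = 0.000306). Hmox1, the heme oxygenase gene, did likewise (0.36 ± 0.07 at 6 h and −0.59 ± 0.07 at 24 h, adjusted p = 0.00109 and 3.64e-05). Of 13 other HIF subunit and regulator genes, 0 rose and 3 fell at 6 h, 1 rose and 2 fell at 12 h, and 2 rose and 2 fell at 24 h, shares of 23.1%, 23.1% and 30.8% that were near or below those of all genes. All of these 24 h calls (Hif3a, Eloc, Cul2 and Rack1) missed the threshold under 1 or more alternative fits. So did the 6 h fall of Arnt and the 12 h calls of Elob and Cited2. Arnt2, a partner subunit of HIF alpha, fell at 6 h (−0.56 ± 0.07, adjusted p = 3.02e-05), Cited2, which limits HIF activity, fell at 6 h (−0.28 ± 0.04, adjusted p = 0.000332), and Siah2, which acts on the prolyl hydroxylases, fell at 12 h (−0.24 ± 0.05, adjusted p = 0.00176).

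Of 14 further glucose transport and glycolysis genes, 3 rose and 3 fell at 6 h, 5 rose and 2 fell at 12 h, and 5 rose and 1 fell at 24 h. The 6 h fall of Pfkfb1 and the 12 h calls of Slc2a12 and Pgam2 missed the threshold under 1 or more alternative fits. Slc2a12, the gene of the transporter GLUT12, fell 2.65-fold at 6 h (−1.40 ± 0.08, adjusted p = 1.14e-07). Slc2a6 rose by 0.72 ± 0.05 at 6 h and 1.00 ± 0.05 at 12 h (adjusted p = 2.86e-07 and 3.99e-08), and the muscle enolase gene Eno3 by 0.67 ± 0.04 and 0.87 ± 0.04 (adjusted p = 2.67e-07 and 6.06e-08). Of 16 genes of pyruvate and lactate entry, 5 rose and 3 fell at 6 h, 4 rose and 3 fell at 12 h, and 3 rose and 6 fell at 24 h. Under 1 or more alternative fits the 6 h calls of Pdhx, Pdk3 and Pc missed the threshold. So did the 12 h fall of Dld and the 24 h calls of Dld and Bsg. Slc16a7, which encodes the carrier MCT2, was 2.4-fold higher at 12 h (1.26 ± 0.06, adjusted p = 1.86e-08), its 6 and 24 h changes being 1.01 ± 0.06 and 0.44 ± 0.06 (adjusted p = 5.27e-08 and 8.92e-05). The kinase gene Pdk4 fell at 6 h (−1.07 ± 0.08, adjusted p = 7e-07), while Pdp2, the gene of a phosphatase that acts against these kinases, rose (0.66 ± 0.05, adjusted p = 1.01e-06) and Pdk3 rose at 12 h (0.49 ± 0.05, adjusted p = 9.03e-06).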

How the data were processed

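Per the submitters' processing notes, the authors made the deposited log2 values with RMA and Partek from Affymetrix Rat Gene 1.0 ST arrays. What versions, summary level and filters applied was not given in the sources used here. The log base rests on the range of the values (2.25 to 14.6). Per the labels, cells were grown in 10% serum and labelling started from 100 ng of RNA. No detection calls or scanner files were used. Precision is limited by the number of arrays (median SE of a log2 difference 0.0667).

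The table has 29214 probe sets. The platform annotation listed 15633, of which 15310 had 1 symbol and 323 several. Symbols were matched through NCBI gene identifiers to RefSeq (GRCr8) for 14481 of 14506 genes. Where a gene had several probe sets (527 genes), the one with the highest mean over 12 arrays was used. Genes were fitted with limma 3.58.1 (R 4.3.3) as 4 group means over all 12 arrays (8 residual and 3.37 prior degrees of freedom), two-sided, with Benjamini-Hochberg adjustment over all genes within each comparison and a threshold of 0.05. No dim genes were left out. On simulated data for 24 h against control (50 genes per fold among 14506), 66%, 86%, 96% and 100% of genes changed 1.25-, 1.5-, 2- and 4-fold were recovered, with 10 unchanged genes called. Far fewer genes changed there than the 30% that passed at 24 h in the data. The simulated shares therefore need not hold for the comparisons reported. The members and gene lists were chosen with earlier results of these data known. Array values are given for members changed at least 1.5-fold, for those passing in both directions, and for Slc2a1, Hk2, Pfkfb3, Pkm, Ldha, Pdk1, Hif1a and Egln3. From other lists up to 4 passing genes of largest change were named. The alternatives were the 2 groups alone, the replicate number as a block, each array left out, a trended and robust variance, median centring, further quantile normalization, the mean of probe sets, all probe sets, and genes above the median level. Figures used Python 3.11.15, pandas 2.3.3 and matplotlib 3.10.9.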

Additional observations from a re-analysis of the deposited data

Results flagged for a closer look

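In 3 members the change against control had opposite signs at 2 times, with both changes and the difference between the times past the threshold. Hk2 differed by −2.03 ± 0.07 between 24 and 6 h (limma, adjusted p = 1.13e-09), from 1.68 at 6 h to −0.35 at 24 h, and in all 3 arrays of each time the sign held against the control arrays. Slc16a1 differed by −1.31 ± 0.08 between 24 and 6 h (adjusted p = 1.01e-07) and by −0.71 ± 0.08 between 24 and 12 h (adjusted p = 3.95e-05), from 0.85 and 0.25 to −0.46. The 12 h call of Slc16a1 was lost without control replicate 1, 2 or 3 or Ang II 12 h replicate 1 or 2 (1 left out at a time, adjusted p 0.0509 to 0.117). Car9 differed by −0.37 ± 0.04 between 24 and 6 h (adjusted p = 2.95e-05), from 0.15 to −0.22. The 6 h call of Car9 was lost without control replicate 1 or Ang II 6 h replicate 1 or 3 (1 left out at a time, adjusted p 0.0543 to 0.0729). Of all genes, 4.99% passed in both directions against control. Groups of 3 arrays are too small for a test of single deviating arrays.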

How the results depend on the processing

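Over all alternatives run, the counts of members that passed stayed within 1.5 times of the reported ones: 26 to 34 at 6 h (29 reported), 25 to 29 at 12 h (28), 21 to 30 at 24 h (24), 18 to 22 for 12 h against 6 h (20), 15 to 26 for 24 h against 12 h (21), 24 to 30 for 24 h against 6 h (28), and 35 to 40 for the 4 groups (38). Of 150 calls of single members in the 6 comparisons, 0 changed sign under any alternative and 27, in 23 members, missed the threshold under 1 or more. The fit of the 2 groups alone lost 15 of them, median centring 11, all probe sets 8, the further quantile normalization 2, and leaving out an array 6 to 13. Centring or quantile normalization moved the median change of all genes by at most 0.04 in size (−0.04 at 24 h with quantile normalization). No pairing by replicate number was evident: deviations of arrays with the same number correlated at −0.10 to 0.30, with 3 of 18 pairs over 0.1. Those with different numbers correlated at −0.28 to 0.26, with 5 of 36 pairs over 0.1. Such correlations in groups of 3 arrays cannot exclude a pairing. With the replicate block 30, 28 and 26 members passed at 6, 12 and 24 h, and 4 single calls were lost. The filter on dim genes left 38 members.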

Other observations

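Side branches of glucose metabolism moved in several directions, beside 35.8%, 26.6% and 30% of all genes that passed at 6, 12 and 24 h. Of 8 genes of the pentose phosphate pathway, which makes ribose and reducing power, 4 rose and 2 fell at 6 h, 4 rose and 2 fell at 12 h, and 0 rose and 1 fell at 24 h. The 12 h rise of Rpe and the 24 h fall of Prps1 missed the threshold under some alternative fits. Rpia, the ribose phosphate isomerase gene, rose at 6 h (0.51 ± 0.07, limma, adjusted p = 0.000108), and at 12 h H6pd, a hexose phosphate dehydrogenase gene (0.38 ± 0.08, adjusted p = 0.00335), and Taldo1, the transaldolase gene (0.38 ± 0.05, adjusted p = 9.34e-05), were higher. The phosphoribosyl pyrophosphate synthetase genes parted, with Prps1 at 0.37 ± 0.07 and Prps2 at −0.31 ± 0.05 at 6 h (adjusted p = 0.000741 and 0.000642). Of 16 genes of glycogen breakdown, hexosamine and polyol metabolism, 2 rose and 3 fell at 6 h, 3 rose and 2 fell at 12 h, and 4 rose and 2 fell at 24 h. The 12 h rises of Gyg1 and Pgm3 and the 24 h fall of Gfpt1 missed the threshold under some alternative fits. Sord, the sorbitol dehydrogenase gene, was 2.15-fold lower at 6 h (−1.11 ± 0.05, adjusted p = 1.01e-08) and still lower at 24 h (−0.65 ± 0.05, adjusted p = 1.72e-06), whereas Akr1b1, the aldose reductase gene upstream of it, rose at 24 h (0.37 ± 0.03, adjusted p = 9.54e-06). Akr1b1 and Prps2 were picked after their values were seen. Gfpt2, which encodes an entry enzyme of hexosamine synthesis, rose at 6 h (0.65 ± 0.07, adjusted p = 1.12e-05), and Phka1, of glycogen breakdown, fell at 6 h (−0.49 ± 0.08, adjusted p = 0.000624). Pgm3, also of hexosamine synthesis, had 0.42 ± 0.06 at 6 h (adjusted p = 0.000144).

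Of 15 citrate cycle genes, 5 rose and 6 fell at 6 h, 5 rose and 3 fell at 12 h, and 4 rose and 3 fell at 24 h. These shares of 73.3%, 53.3% and 46.7% stand beside 35.8%, 26.6% and 30% of all genes. Calls that missed the threshold under some alternative fits include the 12 h rise of Idh3a and the 24 h rise of Cs. Idh2, which encodes a mitochondrial isocitrate dehydrogenase, fell by 0.43 at 24 h (−0.43 ± 0.04, adjusted p = 5.69e-06), and the succinate ligase gene Suclg2 by 0.42 at 12 h (−0.42 ± 0.04, adjusted p = 1.91e-05). Ogdh, a gene of the oxoglutarate dehydrogenase complex, rose at 24 h (0.30 ± 0.04, adjusted p = 8.98e-05), as did Suclg1 (0.35 ± 0.06, adjusted p = 0.000757).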
